A study of Homo sapiens with 30 samples.

Results

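The 48 genes described here encode the machinery of DNA replication and mitosis. They were chosen by symbol, with 17 genes of replication and 31 of mitosis, from the 39126 genes listed for whole-cell RNA, and the same Ensembl identifiers were taken from the 55548 genes listed for nuclear RNA. All 48 members passed the filter on low counts in both tables, so none is left out of the counts below. The lowest member count in a library was 62 in whole-cell RNA and 15 in nuclear RNA.

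The RNA came from Hues6 cells, an established human embryonic stem cell line, carried from the pluripotent state (day 0, D0) to cardiac progenitors (D4) and beating cardiomyocytes (D8). At each day cells were wild type (WT) or labelled as a knockout (KO) of QKI, an RNA-binding protein that regulates splicing, and the labels do not describe the KO clone. Differentiation was started with CHIR, which inhibits GSK3 and so turns on WNT signalling, at 1.5 uM in WT and 1.25 uM in KO, with BMP4 at 1.5 ng/mL in both and the WNT inhibitor C59 afterwards. Genotype and CHIR dose therefore cannot be told apart at D4 and D8. Each of the 6 whole-cell groups and the 2 groups of D8 nuclear RNA holds 3 libraries. Gene counts were analysed for these 24 of the 30 libraries in the series. The remaining libraries are from an embryonic kidney line treated with a control or a QKI siRNA. They enter only through the authors' deposited table of skipped exons, described below. Libraries of a group are not stated to be separate cultures, and p-values then measure only the spread between these libraries, which may be technical.

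In a dividing cell, cyclin E and the E2F factors open the way from G1 into S phase. The licensing factors CDC6 and CDT1 load the MCM helicase onto origins, and CDC45 and GINS complete the active helicase that unwinds DNA for synthesis. Later, cyclins A and B with CDK1 start mitosis, the Aurora and Polo kinases build the spindle, the checkpoint holds anaphase until every kinetochore is attached, and CDC20 then turns on the anaphase-promoting complex. Embryonic stem cells are known for a short G1 phase and rapid division, and cardiomyocytes for leaving the cell cycle as they mature.

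The promoters are shown to describe the sequence elements near the start of the replication and mitosis members. RefSeq promoters (GRCh38.p14, 250 bases before to 50 after the start) were matched by symbol for 39 of the 48 members: RACGAP1, TPX2, TTK, MCM4, AURKA, CCNE2, MCM5, UBE2C and BIRC5 had no entry. Each was searched on both strands for CCAAT, the NF-Y box, for TTTGAA or TTCGAA, forms of the CHR element bound by the MuvB complex, and for TTCCCGC or TTGGCGC, forms of the E2F site. ATTGG, which is CCAAT on the other strand, shares letters with TTGGCGC, so these matches can overlap. An E2F match was present in 11 of 14 replication promoters (78.6%), 4 of 25 mitosis promoters (16%) and 11% of all 27305 genes in the table. A CHR match was present in 2 of 14 replication promoters (14.3%), 19 of 25 mitosis promoters (76.0%) and 19.5% of all. CCAAT was common to both classes, in 71.4% and 76.0% against 39.7% of all, and CCAAT together with CHR stood in 14.3% of the replication and 60.0% of the mitosis promoters against 7.85% of all. A match is a description of the letters only, and its link to any change in level was not tested. CCNE1, MCM2 and CDC45, higher in KO at D0, had no E2F match. TYMS, lower in KO at D0, carried a match.

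Printed 5′ to 3′ from 150 bases before to 30 after the start, with matches in capitals, 3 mitosis promoters with CCAAT and CHR and 3 replication promoters with an E2F match read as follows. CCNB2 lies at chr15:59104996-59105175 on the plus strand, CDC20 at chr1:43358831-43359010 on the plus strand, BUB1 at chr2:110678034-110678213 on the minus strand, E2F1 at chr20:33686356-33686535 on the minus strand, CDC6 at chr17:40287729-40287908 on the plus strand and MCM6 at chr2:135876414-135876593 on the minus strand.
CCNB2: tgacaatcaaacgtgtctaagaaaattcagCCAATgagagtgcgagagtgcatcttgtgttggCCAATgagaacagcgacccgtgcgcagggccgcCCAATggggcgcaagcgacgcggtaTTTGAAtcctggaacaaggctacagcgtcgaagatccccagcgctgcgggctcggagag
CDC20: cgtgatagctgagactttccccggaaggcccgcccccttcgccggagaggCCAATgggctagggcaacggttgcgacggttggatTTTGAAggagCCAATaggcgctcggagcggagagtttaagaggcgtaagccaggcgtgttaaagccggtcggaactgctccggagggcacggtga
BUB1: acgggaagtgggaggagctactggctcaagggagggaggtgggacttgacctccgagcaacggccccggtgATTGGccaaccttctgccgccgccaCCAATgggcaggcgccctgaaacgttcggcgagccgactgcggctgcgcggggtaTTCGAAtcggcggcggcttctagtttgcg
E2F1: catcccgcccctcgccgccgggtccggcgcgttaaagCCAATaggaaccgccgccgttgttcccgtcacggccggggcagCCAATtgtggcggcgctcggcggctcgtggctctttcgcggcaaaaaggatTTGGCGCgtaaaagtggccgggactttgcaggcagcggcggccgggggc
CDC6: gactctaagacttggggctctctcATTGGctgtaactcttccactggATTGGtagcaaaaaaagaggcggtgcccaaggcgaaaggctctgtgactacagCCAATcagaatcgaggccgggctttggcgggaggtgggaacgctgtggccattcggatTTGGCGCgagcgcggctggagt
MCM6: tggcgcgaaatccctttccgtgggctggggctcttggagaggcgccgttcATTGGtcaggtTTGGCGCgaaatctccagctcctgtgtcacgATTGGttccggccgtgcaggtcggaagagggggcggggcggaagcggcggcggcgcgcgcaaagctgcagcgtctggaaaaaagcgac
CCNB2 carries TTTGAA after 3 CCAAT boxes, CDC20 carries it between 2 of them, and BUB1 has the form TTCGAA. The E2F1, CDC6 and MCM6 stretches carry TTGGCGC and CCAAT or its reverse, with no CHR match in the printed stretch. In the longer 300-base window that was counted, MCM6 does hold a CHR match, as does RRM1 among the replication promoters.

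QKI itself (ENSG00000112531.12) was measured first. Levels are CPM, the usual depth-scaled count, here over TMM-scaled library totals. Log2 fold changes are KO minus WT, with a standard error (SE). Calls rest on edgeR's two-sided quasi-likelihood test, at an adjusted p (Benjamini-Hochberg over all genes tested) below 0.05. QKI stood at 300, 294 and 286 CPM in WT and 41.3, 41.3 and 35.5 in KO at D0 (log2 fold change -2.90, SE 0.097, adjusted p = 7e-15). At D4 it was 144, 139 and 156 CPM in WT and 88.5, 68.2 and 78 in KO (log2 fold change -0.90, SE 0.091, adjusted p = 1.6e-07). At D8 it was 368, 319 and 285 CPM in WT, against 340, 329 and 336 in the libraries labelled KO (log2 fold change 0.05, SE 0.089, adjusted p = 0.66), with overlapping groups, and in nuclear RNA 187, 139 and 152 CPM in WT, against 473, 534 and 509 in the libraries labelled KO (log2 fold change 1.66, SE 0.17, adjusted p = 7.9e-10). The gene-level count was thus lower in KO at D0 and D4, not called at D8 and higher in nuclear RNA, against the label; the D8 groups are therefore named as the libraries labelled KO, and a gene-level count cannot show whether the transcript was intact. Library totals were 48697867 to 61484118 counts at D0, 40001076 to 53030999 at D4, 62162704 to 89948185 at D8, and 6549676 to 15030590 in nuclear RNA.

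Both genotypes lost cell cycle transcripts during differentiation. In WT the mitosis genes fell by D4, and most replication genes fell only after it. The summed level of the 48 members was 10400 ± 120 CPM for WT and 10500 ± 120 for KO at D0 (SD, n = 3). At D4 it was 5790 ± 110 and 4680 ± 91. At D8 WT held 2810 ± 74 and the libraries labelled KO 1690 ± 160. From D0 to D4 in WT, 37 members fell and 8 rose, where 39.1% of all 21761 genes tested fell and 42% rose. All 31 mitosis members were among those that fell, with a median log2 fold change of -1.11, against 6 of the 17 replication members, 8 of which rose. From D4 to D8 in WT all 48 fell (33.8% of all genes), with a median of -1.01. In bulk RNA, fewer dividing cells and less of these transcripts per cell cannot be told apart.

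The early step separated the members by phase. TOP2A, the topoisomerase that untangles chromosomes, fell most in WT, from 1450, 1450 and 1420 CPM at D0 to 320, 334 and 354 CPM at D4 (log2 fold change -2.10, SE 0.099, adjusted p = 3.5e-14). E2F1, a transcription factor of G1/S genes, rose most, from 16.6, 18.2 and 15.2 CPM to 48.1, 45.7 and 44.1 CPM (log2 fold change 1.46, SE 0.1, adjusted p = 1.5e-11). The other replication members that rose were CCNE2, CDT1, CDC45, MCM2, MCM4, MCM5 and TYMS, by 0.23 to 0.69 on the log2 scale. CCNE1, MCM6 and MCM7 were not called. MKI67, the chromosome surface protein used as a proliferation marker, had the smallest decrease of the mitosis members at this step (log2 fold change -0.31, SE 0.11, adjusted p = 0.018).

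In the later step the order was the other way round, with replication members at a median of -1.40 and mitosis members at -0.94 between D4 and D8 in WT. CDC45, a helicase cofactor, fell most, from 33.9, 34.9 and 33.5 CPM at D4 to 6.91, 8.85 and 9.34 CPM at D8 (log2 fold change -2.03, SE 0.12, adjusted p = 2.2e-12). CCNB2, a B-type cyclin, fell least, from 74.8, 82.4 and 87.8 CPM to 60.3, 61.2 and 64.9 CPM (log2 fold change -0.39, SE 0.067, adjusted p = 2.4e-05). No library of D8 reached the level of a D4 library for either gene.

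In KO most replication genes fell in the first step as well. From D0 to D4, 44 members fell and 2 rose in KO, where 38.5% of all genes fell and 44.1% rose. The 2 that rose were E2F1 (1.07) and TYMS (0.71), thymidylate synthase, and 13 of 17 replication members fell, with a median of -0.64 against 0.13 in WT. BUB1, a checkpoint kinase, fell most, from 349, 339 and 329 CPM to 69, 72.4 and 71 CPM (log2 fold change -2.26, SE 0.07, adjusted p = 2.8e-17). From D4 to D8, all 48 fell in the libraries labelled KO (38.9% of all genes), with a median of -1.52 against -1.01 in WT. There CDC6 went from 65.4, 66.7 and 64.7 CPM to 11, 8.84 and 8.12 CPM (log2 fold change -2.82, SE 0.11, adjusted p = 2.1e-15), and AURKA, the spindle pole kinase, fell least (log2 fold change -0.69, SE 0.064, adjusted p = 3e-09). WT and KO each supply their own libraries at every day, but each D4 group enters both of its time comparisons.

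**Figure D1:**
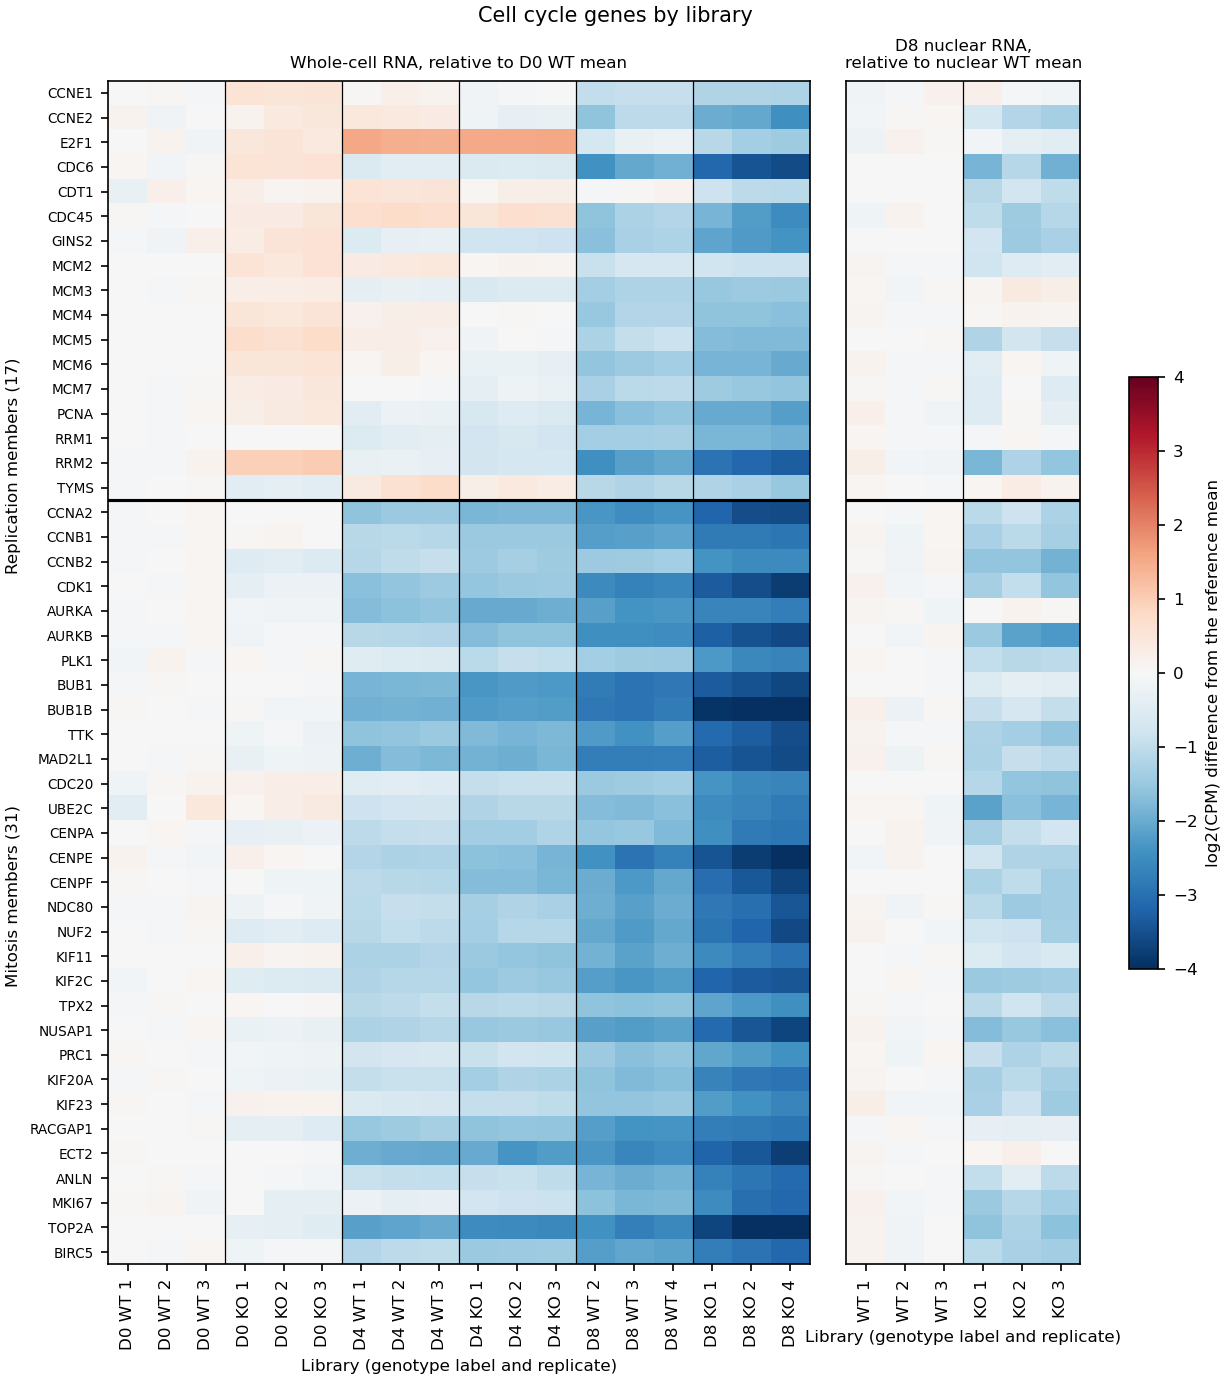
Each row is 1 of the 48 genes and each column 1 library; colour is the log2(CPM) difference from the mean of the D0 WT libraries (left, whole-cell RNA) or of the nuclear WT libraries (right). The mitosis rows turn blue at D4 in both genotypes, and most replication rows are red in D0 KO. The columns of the D8 libraries labelled KO are the bluest, with TOP2A lowest against WT (log2 fold change -1.36).

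At D0, before any differentiation, KO cells held more replication transcripts and somewhat less of several mitosis transcripts. Of the 48 members 14 were higher and 11 lower, where 21.4% of all genes were called higher and 20.9% lower. The 17 replication members gave 13 higher, 1 lower and a median of 0.45, and the 31 mitosis members 1 higher, 10 lower and a median of -0.11, beside -0.012 for all genes tested. The summed replication level was 2580 ± 61 CPM for WT and 3430 ± 100 for KO (SD, n = 3). The summed mitosis level was 7770 ± 79 and 7020 ± 160. Pluripotency markers summed to 6550 to 6850 CPM in WT and 6790 to 7340 in KO, with 1 of 7 higher and 1 lower. Fibroblast and smooth muscle markers were at 196 to 197 CPM in WT and 363 to 400 in KO (2 of 4 higher), and endothelial markers at 200 to 221 and 282 to 315 (2 of 4 higher). Low sums also differed without overlap: endoderm 0.793 to 1.45 and 5.71 to 6.33 CPM (3 of 6 higher), cardiomyocyte 17 to 20.3 and 30.6 to 31.6 (2 of 8 higher), and neural 1.37 to 1.67 and 2.69 to 4.39 (1 of 1 tested higher). Amnion markers were at 49.2 to 56 CPM in WT and 31.4 to 33 in KO (2 of 6 lower). The part of these markers in the D0 result was not tested.

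By D4 the direction of the replication genes had turned. In KO 37 members were lower and 0 higher (12% of all genes lower, 16.3% higher), with 14 of 17 replication members at a median of -0.26 and 23 of 31 mitosis members at -0.34. The 11 members not called were E2F1, CDC6, CDC45, CDK1, MAD2L1, NUF2, TPX2, PRC1, RACGAP1, ECT2 and ANLN. The decreases were small: 2 members, CENPF and CCNE2, were lower by 1.5-fold or more. With library totals in place of TMM factors the count of lower members was 24 (7 of replication), and leaving out D4 KO replicate 1 left 8 replication members lower.

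At D8 the deficit was broad and larger. In the libraries labelled KO 46 members were lower and 0 higher (26.2% of all genes lower, 29.4% higher), all 48 log2 fold changes were negative, and 37 were lower by 1.5-fold or more. All 31 mitosis members were lower (median -1.0) and 15 of 17 replication members (median -0.51), beside 0.0063 for all genes. The 2 that were not called were MCM2, a helicase subunit (-0.10, adjusted p = 0.2), and TYMS (-0.18, adjusted p = 0.061). MCM2 was called without D8 WT replicate 2 (-0.16, adjusted p = 0.028) and TYMS without D8 KO replicate 1 (-0.26, adjusted p = 0.015). In all, 35 members were lower at both D4 and D8, and 13 were higher at D0 and lower at D8. No share of all genes is given here for these overlaps or for the 1.5-fold count, so they cannot be judged against all genes.

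Most lists of cell type markers also differed at D8, some higher and some lower in the libraries labelled KO. WT libraries held 9220 to 16200 CPM of cardiomyocyte markers and libraries labelled KO 25100 to 28700 (6 of 8 higher, 1 lower). For pluripotency markers the sums were 1250 to 1610 and 535 to 620 (5 of 7 lower, 1 higher). Surface ectoderm and amnion markers summed to 471 to 921 CPM in WT, against 10.9 to 19.1 with the KO label (6 of 6 lower). Endothelial markers summed to 278 to 332 and 612 to 665 (3 of 4 higher). Endoderm markers came to 135 to 212 and 280 to 423 (5 of 6 higher, 1 lower). Fibroblast and smooth muscle markers came to 978 to 1120 and 1580 to 1850 (3 of 4 higher). Neural markers summed to 0.599 to 0.849 CPM and 0.743 to 1.13, with 1 of 4 tested and not called. No marker that passed the filter on low counts had a mean of 0 in either D8 group. Of these NANOG was lowest, at 0.0684 and 0.0304 CPM. PAX6, SOX1 and NEUROD1 did not pass that filter in whole-cell RNA, and PECAM1 had no entry. The part of the markers in the lower cell cycle genes was not tested. At D4 the amnion markers summed to 34.7 to 69.6 in WT and 10.6 to 13.7 in KO, and pluripotency markers to 2080 to 2230 and 1860 to 1870. Other lists were higher in KO at D4: endoderm 77.3 to 86.2 against 202 to 221 CPM (5 of 6 genes higher), endothelium 191 to 227 against 392 to 438 (3 of 4) and cardiomyocyte 253 to 305 against 348 to 426 (4 of 8, 1 lower). Fibroblast and smooth muscle markers at D4 overlapped (555 to 713 and 458 to 668), as did neural markers (2.08 to 3.81 and 1.72 to 2.52).

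**Figure D2:**
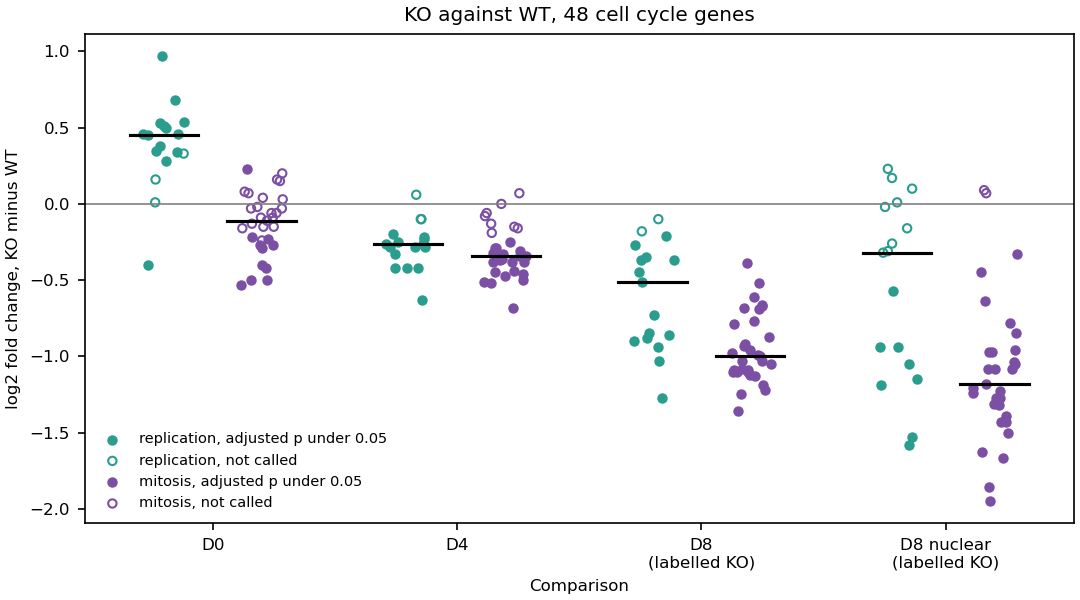
Points are the log2 fold changes (KO minus WT) of the 17 replication members (green) and 31 mitosis members (purple) in each comparison, filled where the adjusted p was under 0.05; the black line is the median. Replication members other than TYMS lie above 0 at D0 with RRM2 highest at 0.97, and every filled point lies below 0 from D4 onward, down to -1.95 for AURKB in nuclear RNA.

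The change between days was itself tested as an interaction. Between D0 and D4 the KO effect became more negative for 28 members and more positive for 2 (19.1% and 20% of all genes), including 16 of 17 replication members and 12 of 31 mitosis members. The 2 were CDK1 (0.34) and RACGAP1 (0.27), which were lower in KO at D0 and not called at D4. This count of 2 fell to 0 without D0 WT replicate 3, D4 WT replicate 1 or D4 KO replicate 2, and to 1 without D0 KO replicate 1, D0 KO replicate 3 or D4 KO replicate 3. Higher at D0 and lower at D4 were 11 members: CCNE1, CDC20, GINS2, PCNA, RRM2 and all 6 of the MCM genes MCM2 to MCM7. The share of all genes called in both ways is not given here. The D4 calls of CCNE1, MCM4, MCM7 and PCNA and the D0 call of CDC20 were lost when certain single libraries were left out, as given below. Between D4 and D8 the effect, which at D8 rests on the KO label, became more negative for 37 members (21.9% of all genes). Of these, 29 were of mitosis and 8 of replication. Both tests use the D4 libraries, so they are not independent of each other.

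Among the G1/S regulators, CCNE1 and E2F1 rose in KO at D0 and all 3 genes were lower at D8. CCNE1, cyclin E1, stood at 27.5, 27.9 and 25.6 CPM in WT and 39.1, 38.1 and 38.5 in KO at D0 (log2 fold change 0.51, SE 0.062, adjusted p = 1.4e-06), and every KO library was above every WT library. At D4 it was 27.8, 31.2 and 29.9 CPM in WT and 24.3, 26.3 and 26.8 in KO (log2 fold change -0.20, SE 0.063, adjusted p = 0.02), a call lost without D4 WT replicate 2 (-0.15, adjusted p = 0.14), D4 WT replicate 3 (-0.19, 0.054) or D4 KO replicate 1 (-0.16, 0.12). At D8 CCNE1 was 13.6, 14.1 and 14.3 CPM in WT, against 11.8, 11.6 and 11.5 in the libraries labelled KO (log2 fold change -0.27, SE 0.065, adjusted p = 0.0014), a narrow gap without overlap. CCNE2, cyclin E2, was 6.44, 5.21 and 5.8 CPM in WT and 6.33, 7.66 and 7.88 in KO at D0, with groups that overlapped (0.33, adjusted p = 0.064). It had the largest decrease of the replication members at D4, at 7.75, 7.61 and 7.2 CPM in WT and 5.16, 4.64 and 4.73 in KO (log2 fold change -0.63, SE 0.14, adjusted p = 0.0017), and at D8 it was 1.91, 2.83 and 2.8 CPM in WT, against 1.47, 1.41 and 1.05 in the libraries labelled KO (-0.94, adjusted p = 4.5e-05). E2F1 was 16.6, 18.2 and 15.2 CPM in WT and 22.9, 23.6 and 22 in KO at D0 (0.45, adjusted p = 0.00099). At D4, when its level was at its highest, the genotypes overlapped at 48.1, 45.7 and 44.1 CPM in WT and 47.4, 47.5 and 48.8 in KO (0.06, adjusted p = 0.7), and by D8 it was 10.1, 13.4 and 14.1 CPM in WT, against 7.68, 6.46 and 6.25 in the libraries labelled KO (log2 fold change -0.88, SE 0.1, adjusted p = 4.4e-07).

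Of the origin licensing and firing genes, 9 of 10 were higher in KO at D0 (median 0.46). CDC6, the loader that brings the MCM helicase to origins, was 102, 91.2 and 100 CPM in WT and 142, 139 and 145 in KO at D0 (log2 fold change 0.54, SE 0.096, adjusted p = 0.00013). At D4 its groups overlapped, at 65.9, 73.4 and 71.5 CPM in WT and 65.4, 66.7 and 64.7 in KO (-0.10, adjusted p = 0.5). At D8 CDC6 had the largest decrease of the replication members, at 18.3, 23.5 and 25.8 CPM in WT, against 11, 8.84 and 8.12 in the libraries labelled KO (log2 fold change -1.27, SE 0.11, adjusted p = 2.7e-09), and every library labelled KO lay below every WT library. CDT1, its partner in loading, was the member of this group not called at D0, at 30.6, 43.6 and 40.2 CPM in WT and 44.9, 40.5 and 42 in KO (0.16, adjusted p = 0.22). At D4 CDT1 was 55.3, 52.7 and 53.4 CPM in WT and 39.7, 44.8 and 44.4 in KO (-0.33, adjusted p = 0.015), a call lost without D4 WT replicate 1 (-0.31, adjusted p = 0.052) or D4 KO replicate 1 (-0.27, 0.086). At D8 CDT1 was 36, 39.1 and 42 CPM in WT, against 21.3, 18.2 and 17.9 in the libraries labelled KO (log2 fold change -1.03, SE 0.1, adjusted p = 2.6e-08).

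The 6 helicase subunits MCM2 to MCM7 were all higher at D0, with log2 fold changes of 0.28 to 0.68, and all lower at D4, with -0.42 to -0.22. MCM5 was 166, 164 and 170 CPM in WT and 269, 255 and 280 in KO at D0 (log2 fold change 0.68, SE 0.075, adjusted p = 3.5e-07). At D4 MCM5 was 199, 201 and 187 CPM in WT and 152, 169 and 162 in KO (-0.28, adjusted p = 0.0072). At D8 MCM5 was 69.5, 87 and 91.2 CPM in WT, against 50.4, 49.5 and 49.4 in the libraries labelled KO (-0.73, adjusted p = 6.8e-08), with no overlap at any day. MCM2 was 140, 142 and 144 CPM in WT and 209, 189 and 214 in KO at D0 (log2 fold change 0.53, SE 0.063, adjusted p = 1.1e-06). At D4 MCM2 was 179, 187 and 192 CPM in WT and 149, 158 and 153 in KO (-0.28, adjusted p = 0.0018). At D8 its groups overlapped, at 76.6, 88.7 and 89.3 CPM in WT, against 82.3, 78.1 and 77.8 in the libraries labelled KO (-0.10, adjusted p = 0.2). The other 4 subunits at D8 ranged from -0.45 for MCM6 to -0.21 for MCM3. The MCM4 call at D4 (-0.22, adjusted p = 0.025) was lost without D4 WT replicate 2 (adjusted p = 0.077), D4 WT replicate 3 (0.077), D4 KO replicate 1 (0.094) or D4 KO replicate 3 (0.057), and that of MCM7 without D4 KO replicate 1 (0.057). CDC45 and GINS2, the helicase cofactors, were higher at D0 (0.38 and 0.46) and lower at D8 (-0.85 and -0.86).

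The DNA synthesis group held both the largest increase and the only decrease of the replication members at D0. RRM2, the regulated subunit of ribonucleotide reductase, which makes the DNA building blocks, stood at 125, 129 and 145 CPM in WT and 255, 256 and 269 in KO (log2 fold change 0.97, SE 0.085, adjusted p = 1.9e-08). At D4 RRM2 was 109, 110 and 106 CPM in WT and 80.5, 81.8 and 81.2 in KO (-0.42, adjusted p = 0.00077). At D8 RRM2 was 24.3, 29.5 and 32 CPM in WT, against 17.2, 15.1 and 13.5 in the libraries labelled KO (-0.90, adjusted p = 3.7e-08). RRM1, the other subunit, was not called at D0 (0.01, adjusted p = 0.92) and lower at D4 (-0.28) and D8 (-0.51). TYMS, which makes thymidylate, was 76.3, 79.1 and 81.2 CPM in WT and 57.9, 61.9 and 59.2 in KO at D0 (log2 fold change -0.40, SE 0.08, adjusted p = 0.00039), and every KO library lay below every WT library. At D4 TYMS overlapped, at 102, 119 and 130 CPM in WT and 93.6, 104 and 96.5 in KO. Its decrease there (-0.26, adjusted p = 0.018) was not called without D4 WT replicate 2 (adjusted p = 0.069), D4 WT replicate 3 (0.13), D4 KO replicate 1 (0.085) or D4 KO replicate 3 (0.064). At D8 TYMS overlapped, at 36.6, 34.1 and 36.3 CPM in WT, against 34.6, 31.9 and 27.7 in the libraries labelled KO. PCNA, the sliding clamp of DNA polymerases, was 214, 204 and 226 CPM in WT and 253, 277 and 287 in KO at D0 (0.34, adjusted p = 0.00096). At D8 PCNA was 58.9, 66.6 and 71.9 CPM in WT, against 52.6, 53.5 and 46.2 in the libraries labelled KO (-0.37, adjusted p = 0.00031). At D4 it was 161, 181 and 177 CPM in WT and 139, 150 and 144 in KO (-0.26, adjusted p = 0.011), a call lost without D4 WT replicate 2 (0.072) or D4 KO replicate 1 (0.057).

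**Figure D3:**
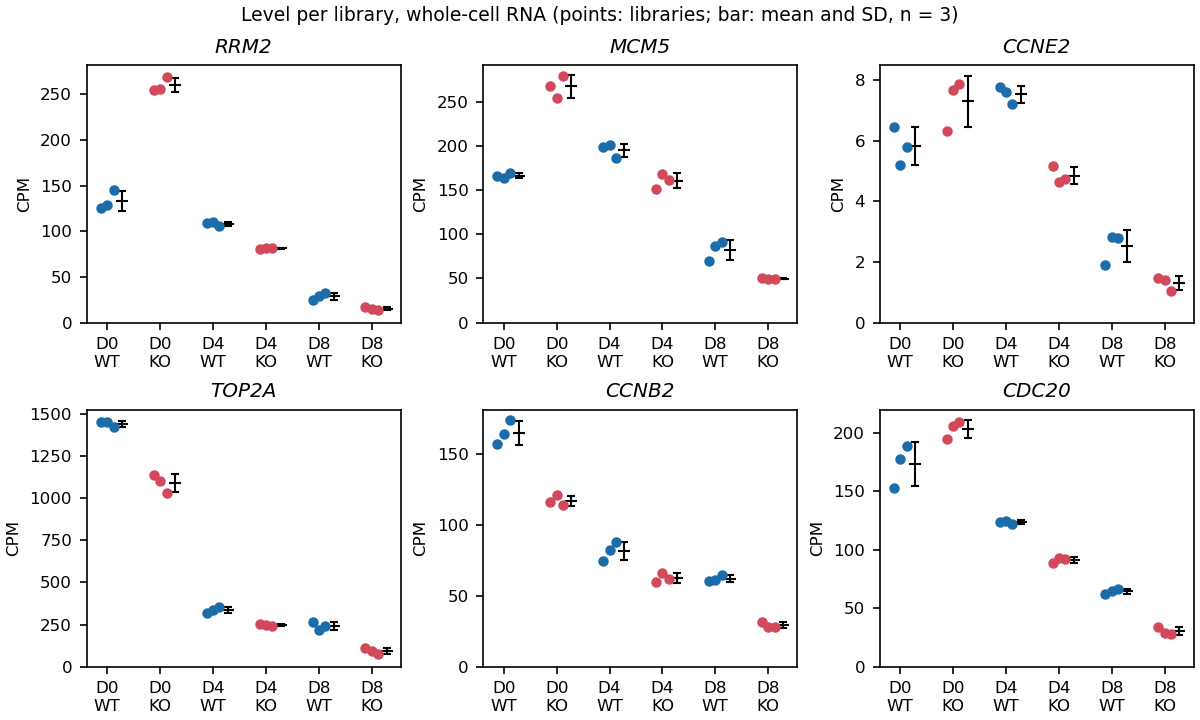
Points are the CPM of single whole-cell libraries for 3 replication genes (top) and 3 mitosis genes (bottom), WT in blue and those labelled KO in red, with the mean and SD of 3 libraries beside them. RRM2 and MCM5 are higher in KO at D0 and lower in KO at D4 and in the D8 libraries labelled KO, whereas TOP2A and CCNB2 are lower in the red points of all 3 days.

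The mitotic cyclins and CDK1 split at D0, when 2 of 4 were lower and 2 were not called. CCNB1, cyclin B1, was 336, 337 and 361 CPM in WT and 358, 372 and 352 in KO at D0 (0.07, adjusted p = 0.31), with groups that overlapped. At D4 CCNB1 was 160, 164 and 156 CPM in WT and 123, 124 and 122 in KO (-0.38, adjusted p = 5.7e-06). At D8 CCNB1 was 75.2, 76.6 and 80.2 CPM in WT, against 48.7, 48.1 and 46.7 in the libraries labelled KO (log2 fold change -0.69, SE 0.051, adjusted p = 4.9e-10). CCNB2, its paralogue, was already lower at D0, at 157, 164 and 174 CPM in WT and 116, 121 and 114 in KO (log2 fold change -0.50, SE 0.066, adjusted p = 4e-06). It was 74.8, 82.4 and 87.8 CPM in WT and 59.7, 66.1 and 62 in KO at D4 (-0.38, adjusted p = 0.00017). At D8 CCNB2 was 60.3, 61.2 and 64.9 CPM in WT, against 31.6, 28 and 28.1 in the libraries labelled KO (-1.09, adjusted p = 4.3e-11), without overlap at any of the days. CDK1, the kinase both cyclins activate, was lower at D0 (-0.27, adjusted p = 0.011), a call lost without D0 WT replicate 3 (-0.23, adjusted p = 0.051) or D0 KO replicate 1 (-0.23, 0.058). CDK1 had the highest log2 fold change of all members at D4, at 86.2, 93.3 and 100 CPM in WT and 94.6, 98.6 and 100 in KO (0.07, adjusted p = 0.6), and lower at D8 (-0.92). CCNA2, cyclin A2, was not called at D0 (-0.02) and lower at D8 (-1.03).

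None of the 3 mitotic kinases was called at D0, and all 3 were lower at D4 and D8. AURKB, the kinase of the chromosomal passenger complex, was 131, 131 and 142 CPM in WT and 122, 129 and 128 in KO at D0 (-0.09, adjusted p = 0.26). It was 63, 60.4 and 60 CPM in WT and 40.8, 43.7 and 43.7 in KO at D4 (log2 fold change -0.52, SE 0.066, adjusted p = 3.9e-06). At D8 AURKB was 24.5, 24.6 and 24.1 CPM in WT, against 13.9, 11.9 and 11.1 in the libraries labelled KO (-0.99, adjusted p = 2.5e-10), and its groups did not overlap at any day. PLK1, the Polo kinase of the spindle, was 132, 158 and 138 CPM in WT and 151, 139 and 146 in KO at D0 (0.03, adjusted p = 0.82). At D4 PLK1 was 101, 97.4 and 95.8 CPM in WT and 66.7, 74.4 and 71.5 in KO (-0.47, adjusted p = 0.00012). At D8 PLK1 was 55.8, 52.8 and 52.5 CPM in WT, against 29.1, 23.8 and 22.5 in the libraries labelled KO (log2 fold change -1.09, SE 0.082, adjusted p = 6.6e-10). AURKA had the smallest decrease of the mitosis members at D8, at 35.8, 31.2 and 32.5 CPM in WT, against 26, 26.2 and 23.9 in the libraries labelled KO (log2 fold change -0.39, SE 0.063, adjusted p = 2.6e-05), still without overlap.

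All 6 genes of the checkpoint and the anaphase-promoting complex were lower at D8. BUB1, which recruits checkpoint proteins to kinetochores, was 338, 354 and 346 CPM in WT and 349, 339 and 329 in KO at D0 (-0.03, adjusted p = 0.77). At D4 BUB1 was 94.7, 97.2 and 99.9 CPM in WT and 69, 72.4 and 71 in KO (-0.46, adjusted p = 2.3e-05). At D8 BUB1 was 49.8, 44.4 and 47.8 CPM in WT, against 34.8, 30.6 and 27.5 in the libraries labelled KO (-0.61, adjusted p = 2.1e-07). BUB1B, its relative in the checkpoint complex, had the largest decrease of the 4 checkpoint genes at D8 (-1.22), followed by TTK, the kinase that starts checkpoint signalling (-1.0), and MAD2L1, the inhibitor of CDC20 (-0.68). CDC20, the activator of the anaphase-promoting complex, was the only mitosis member called higher at D0, at 153, 178 and 189 CPM in WT and 195, 206 and 209 in KO (log2 fold change 0.23, SE 0.073, adjusted p = 0.015). That call was lost without D0 WT replicate 1 (0.15, adjusted p = 0.12) or D0 KO replicate 3 (0.21, 0.056). At D4 CDC20 was 124, 125 and 122 CPM in WT and 88.6, 92.8 and 92.4 in KO (-0.44, adjusted p = 0.00011). At D8 CDC20 was 62.3, 65.1 and 66.4 CPM in WT, against 34, 29 and 27.6 in the libraries labelled KO (log2 fold change -1.10, SE 0.076, adjusted p = 1.9e-10), lower in every library labelled KO. UBE2C, the ubiquitin carrier of the complex, was lower at D8 (-0.93, adjusted p = 1.1e-05), while its D4 value (-0.38, adjusted p = 0.044) was not called after any of the 6 D4 libraries was left out.

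Kinetochore genes were all lower at D8, with a median of -1.10 over 5 genes. CENPA, the histone that marks the centromere, was 22.1, 23.4 and 21.7 CPM in WT and 18, 18.2 and 18.9 in KO at D0 (-0.29, adjusted p = 0.02), a call lost without D0 WT replicate 2 (-0.25, adjusted p = 0.079), D0 KO replicate 1 (-0.27, 0.063) or D0 KO replicate 2 (-0.28, 0.056). At D4 CENPA was 10.9, 11.5 and 11.7 CPM in WT and 8.61, 8.47 and 9.81 in KO (-0.34, adjusted p = 0.014), not called without D4 KO replicate 1 (-0.31, 0.061) or D4 KO replicate 2 (-0.30, 0.066). At D8 it was 7.69, 7.84 and 6.62 CPM in WT, against 4.11, 3.18 and 2.99 in the libraries labelled KO (-1.10, adjusted p = 2.3e-08), with no overlap. CENPF, a large protein of the outer kinetochore, overlapped at D0, at 486, 468 and 450 CPM in WT and 470, 416 and 417 in KO (-0.11, adjusted p = 0.46). CENPF had the largest decrease of all members at D4, at 228, 216 and 214 CPM in WT and 140, 140 and 131 in KO (log2 fold change -0.68, SE 0.11, adjusted p = 6.4e-05), and was 119, 95.5 and 112 CPM in WT, against 57, 44.6 and 35.8 in the libraries labelled KO at D8 (-1.25, adjusted p = 8.3e-09). CENPE, the kinetochore motor, and NDC80 and NUF2, which bind spindle microtubules, were lower at D8, with log2 fold changes of -1.10, -1.03 and -1.08. NUF2 alone of these was lower at D0 as well (-0.50, adjusted p = 0.00039).

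Among spindle and cytokinesis genes, KIF2C had the largest decrease of all members at D0. KIF2C, a kinesin that shortens microtubules at centromeres, stood at 165, 180 and 186 CPM in WT and 126, 121 and 119 in KO (log2 fold change -0.53, SE 0.063, adjusted p = 9.9e-07) and was lower at D8 as well (-1.05). NUSAP1, a spindle microtubule protein, was lower at D0 (-0.27, adjusted p = 0.015) and at D8 (-1.19). Its D0 call was lost without D0 WT replicate 3 (-0.23, adjusted p = 0.061) or D0 KO replicate 3 (-0.25, 0.058). KIF11, the motor that separates the spindle poles, and TPX2, which activates AURKA, were not called at D0 and lower at D8 (-0.77 and -0.66). KIF20A, a kinesin of the central spindle, was 161, 176 and 169 CPM in WT and 150, 142 and 139 in KO at D0 (-0.23, adjusted p = 0.0073). At D4 KIF20A was 87.6, 91.9 and 90.3 CPM in WT and 65.5, 72.7 and 70 in KO (-0.37, adjusted p = 0.00019). At D8 KIF20A was 55, 50.1 and 51.8 CPM in WT, against 26.6, 23.4 and 21.7 in the libraries labelled KO (-1.13, adjusted p = 2.5e-11), without overlap at any day. The other cytokinesis genes, PRC1, KIF23, RACGAP1, ECT2 and ANLN, were lower at D8, with log2 fold changes of -0.98 (ANLN) to -0.52 (RACGAP1), and RACGAP1 was lower at D0 (-0.42).

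The last group holds the commonly used proliferation markers. MKI67 was 396, 409 and 347 CPM in WT and 375, 297 and 301 in KO at D0 (-0.24, adjusted p = 0.097), where KO replicate 1 lay within the WT range, and without that library the value was -0.36 (adjusted p = 0.024). At D4 MKI67 was 329, 298 and 302 CPM in WT and 223, 218 and 213 in KO (-0.51, adjusted p = 0.002). At D8 MKI67 was 124, 108 and 111 CPM in WT, against 66.8, 47.3 and 43.6 in the libraries labelled KO (log2 fold change -1.12, SE 0.12, adjusted p = 8.6e-08). TOP2A was 1450, 1450 and 1420 CPM in WT and 1140, 1100 and 1030 in KO at D0 (log2 fold change -0.40, SE 0.095, adjusted p = 0.0018). At D4 TOP2A was 320, 334 and 354 CPM in WT and 251, 246 and 240 in KO (-0.45, adjusted p = 0.0011). At D8 TOP2A had the largest decrease of all 48 members, at 266, 216 and 243 CPM in WT, against 113, 91 and 77.9 in the libraries labelled KO (log2 fold change -1.36, SE 0.098, adjusted p = 3.4e-10), and its groups were apart at every day. BIRC5, survivin, a partner of AURKB, was 186, 177 and 194 CPM in WT and 166, 176 and 181 in KO at D0 (-0.09, adjusted p = 0.32). At D4 BIRC5 was 81.8, 89.2 and 91.2 CPM in WT and 66.8, 68.5 and 69.4 in KO (-0.36, adjusted p = 0.00084). At D8 BIRC5 was 40.3, 43.6 and 41.7 CPM in WT, against 27.5, 24.2 and 21 in the libraries labelled KO (-0.79, adjusted p = 2.3e-08). BIRC5 passed the test at D4 and D8, and its D0 groups overlapped.

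The relative weight of the 2 phases was described per library as the mean log2(CPM) of the mitosis members minus that of the replication members, with no test. At D0 this difference was 1.10, 1.15 and 1.12 in WT and 0.66, 0.63 and 0.55 in KO, so every KO library was lower. At D4 it was -0.20, -0.24 and -0.19 in WT and -0.23, -0.28 and -0.26 in KO, close together. At D8 it was 0.47, 0.11 and 0.14 in WT and -0.02, -0.13 and -0.20 in the libraries labelled KO, where D8 WT replicate 2 stood above the other WT libraries. In nuclear RNA it was 0.03, -0.06 and -0.03 in WT and -0.49, -0.58 and -0.58 in the libraries labelled KO. The replication members thus weighed more in KO than in WT at D0 and more in the libraries labelled KO at D8.

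**Figure D4:**
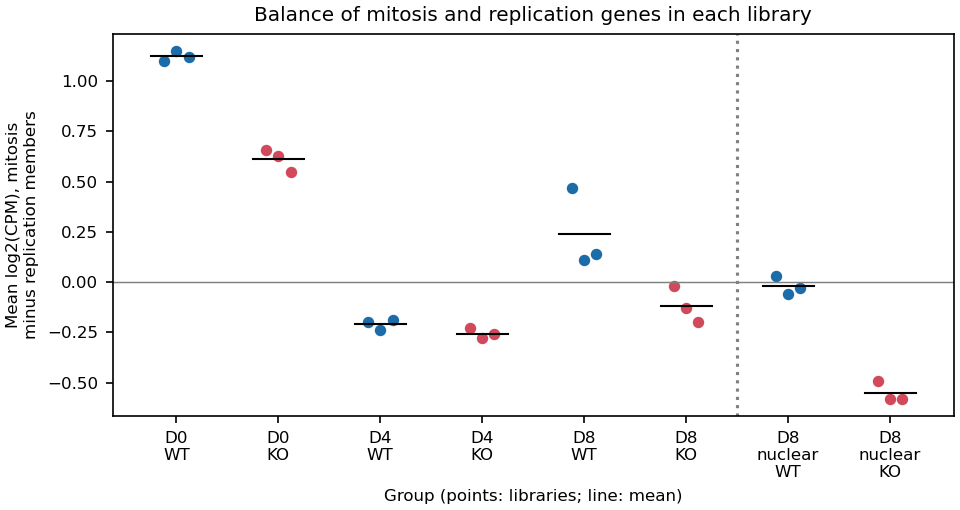
Each point is 1 library, WT in blue and those labelled KO in red, and lines are group means; the vertical axis is the mean log2(CPM) of the 31 mitosis members minus that of the 17 replication members. D0 WT libraries sit at 1.10 to 1.15 and D0 KO libraries at 0.55 to 0.66, and the nuclear values right of the dotted line come from a separate table.

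Nuclear RNA of D8 was counted and fitted separately, so its values are set beside those of whole-cell RNA and not tested against them. In the nuclear libraries labelled KO 37 members were lower and 0 higher (32.8% of all 30481 genes lower, 31.2% higher), with 29 of 31 mitosis members and 8 of 17 replication members lower. The members' median was -1.05 (mitosis -1.18, replication -0.32), beside -0.27 for all genes. With library totals the all-gene median was -0.72 and 46 members were lower (15 of replication), with upper-quartile factors -0.73 and 47 (16), and with DESeq2 -0.20 and 28. Lower in both D8 fits were 36 members, in whole-cell RNA only 10, in nuclear RNA only MCM2 and in neither TYMS. No share of all genes is given here for this overlap. Nuclear WT libraries held 16300 to 22200 CPM of cardiomyocyte markers and those labelled KO 61600 to 74600 (8 of 8 higher). Pluripotency markers summed to 94.9 to 107 and 99.9 to 119 (5 of 7 lower, 1 higher), and amnion markers to 485 to 780 and 150 to 399 (5 of 6 lower). Endoderm markers summed to 17.9 to 21.5 and 189 to 485 (5 of 6 higher, 1 lower), endothelial markers to 57.2 to 66.7 and 433 to 482 (1 of 4 higher, 3 lower). Neural markers summed to 24.9 to 26.6 and 12.1 to 20.2 (3 of 4 lower), fibroblast and smooth muscle markers to 1350 to 2060 and 1570 to 3340 (2 of 4 higher, 1 lower). Their part in the nuclear result was not tested.

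In the nucleus AURKB, of the passenger complex, had the largest decrease, at 10.8, 10.1 and 11.6 CPM in WT, against 3.9, 2.45 and 2.19 in the libraries labelled KO (log2 fold change -1.95, SE 0.21, adjusted p = 4.7e-09). UBE2C followed (-1.86), then CCNB2, at 12.7, 11.1 and 13.1 CPM in WT, against 4.12, 4.1 and 3.34 in the libraries labelled KO (-1.67, adjusted p = 5.7e-09). CDC6 again led the replication members, at 26.8, 27.4 and 26.5 CPM in WT, against 7.35, 12.2 and 7.15 in the libraries labelled KO (-1.58, adjusted p = 1.1e-09). RRM2 came next, at 21.8, 16.9 and 16.8 CPM in WT, against 5.12, 7.86 and 6.1 in the libraries labelled KO (-1.53, adjusted p = 5.3e-09). For each of these 4 genes with library values, all libraries labelled KO lay below all WT libraries. MKI67 was 63.5, 52.1 and 55.3 CPM in WT, against 20.4, 25.5 and 22.3 in the libraries labelled KO (-1.32, adjusted p = 1.1e-09). TOP2A was 83.1, 68.4 and 73.8 CPM in WT, against 24.8, 30.8 and 24 in the libraries labelled KO (-1.50, adjusted p = 1.5e-10). PLK1 was 14.1, 13.1 and 12.8 CPM in WT, against 6.79, 6.11 and 6.48 in the libraries labelled KO (-1.04, adjusted p = 2.2e-06), beside -1.09 in whole-cell RNA.

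The remaining fixed set gave nuclear values in the same direction for most genes. CCNB1 was 33.6, 27.5 and 32.8 CPM in WT, against 12.7, 14.7 and 12.5 in the libraries labelled KO (-1.23). CDC20 was 16.8, 17.1 and 17.4 CPM in WT, against 7.79, 5.76 and 5.63 in the libraries labelled KO (-1.43). BIRC5 was 15.3, 12.6 and 14.2 CPM in WT, against 6.57, 5.68 and 5.34 in the libraries labelled KO (-1.27). In all 3 the libraries labelled KO were the low ones. CENPF was 84, 82.1 and 80.8 CPM in WT, against 34.4, 40.6 and 31.3 in the libraries labelled KO (-1.21). CENPA was 4.26, 4.56 and 3.76 CPM in WT, against 1.67, 2.18 and 2.48 in the libraries labelled KO (-0.97). KIF20A was 20.2, 18.5 and 17.7 CPM in WT, against 7.46, 8.82 and 7.53 in the libraries labelled KO (-1.24). All 6 passed the test, with no overlap between the groups. BUB1 was 29.8, 29.8 and 28.6 CPM in WT, against 20.3, 22.6 and 21.5 in the libraries labelled KO (-0.45, adjusted p = 0.0032), a call lost without nuclear KO replicate 1 (-0.32, adjusted p = 0.077), with RLE factors, with DESeq2 or with no filter on low counts. CCNE2 was 8.29, 9.24 and 9.51 CPM in WT, against 5.57, 4.02 and 3.62 in the libraries labelled KO (-1.05). CDT1 was 9.18, 9.37 and 8.99 CPM in WT, against 4.23, 5.41 and 4.58 in the libraries labelled KO (-0.94). MCM5 was 43.5, 43.9 and 45.2 CPM in WT, against 19.4, 26.4 and 23.3 in the libraries labelled KO (-0.94), and all 3 were lower. MCM2, not called in whole-cell RNA, was 35.8, 31.9 and 31.2 CPM in WT, against 19, 22.8 and 24.4 in the libraries labelled KO (-0.57, adjusted p = 0.00052), a call lost with DESeq2 (-0.24, adjusted p = 0.46) or with no filter (-0.38, 0.15).

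Several replication genes and 2 mitosis genes were not called in the nucleus. CCNE1 was 7.17, 7.64 and 8.99 CPM in WT, against 9.02, 7.69 and 7.34 in the libraries labelled KO (0.01). E2F1 was 7.73, 9.98 and 9.31 CPM in WT, against 8.24, 6.99 and 6.58 in the libraries labelled KO (-0.31). PCNA was 32.3, 27 and 25.2 CPM in WT, against 19.8, 28.7 and 21.5 in the libraries labelled KO (-0.26). TYMS was 12.5, 12.1 and 11.3 CPM in WT, against 12.5, 14.8 and 13.1 in the libraries labelled KO (0.17). The groups overlapped for each of these 4 genes. MCM3 had the highest log2 fold change of all members, at 76.3, 66.2 and 73.6 CPM in WT, against 76.9, 91.3 and 85.3 in the libraries labelled KO (0.23, adjusted p = 0.13), called higher with DESeq2 (0.58, adjusted p = 0.033) or without nuclear KO replicate 1 (0.39, 0.040) and lower with library totals (-0.22) or upper-quartile factors (-0.23). PCNA and MCM7 were called lower without nuclear KO replicate 2 (-0.44, adjusted p = 0.0029, and -0.52, 0.00031), as was MCM6 (-0.29, 0.047), and MCM7 also without nuclear WT replicate 2 (-0.41, 0.047). ECT2, the exchange factor that drives the cleavage furrow, was 28.9, 25.5 and 26.5 CPM in WT, against 28.7, 31 and 26.6 in the libraries labelled KO (0.09, adjusted p = 0.52) in the nucleus. Its whole-cell level was 54.9, 44.8 and 48.6 CPM in WT, against 29.8, 26.1 and 20.2 in the libraries labelled KO (log2 fold change -0.96, SE 0.1, adjusted p = 1.3e-07). AURKA was 14.8, 14.1 and 12 CPM in WT, against 13.7, 15.1 and 13.9 in the libraries labelled KO (0.07, adjusted p = 0.68). Under library totals ECT2 and AURKA were -0.36 and -0.38 and both passed the test. RACGAP1 was called lower (-0.33, adjusted p = 0.029) but lost the call in every fit without a nuclear library except those without KO replicate 2 or WT replicate 3, and was 0.01 with DESeq2.

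Genes of the same pathways that are not members were counted in the same way, to be read against the shares of all genes called higher and lower: 21.4% and 20.9% at D0, 16.3% and 12% at D4, 29.4% and 26.2% at D8, and 31.2% and 32.8% in nuclear RNA. Of 37 other replication genes, 22 were higher and 2 lower in KO at D0 (median 0.27), from UHRF1, which maintains DNA methylation behind the fork (1.25), to RFC4, a clamp loader subunit (-0.27). At D4 16 were lower and 0 higher (median -0.19), with the smallest decrease for POLA1, a DNA polymerase subunit (-0.18), and at D8 24 were lower and 2 higher (median -0.46), from MCM10 (-1.16) to RPA2 (0.22). Of 44 other mitosis genes, 10 were higher and 11 lower at D0 (median 0.00), near the 21.4% and 20.9% of all genes, from CDC25A, a phosphatase that activates CDKs (0.93), to PTTG1, securin (-0.47). At D4 30 were lower and 0 higher (median -0.27), ASPM most (-0.63) and CDC25C least (-0.20), and at D8 41 were lower and 1 higher (median -0.86), from KIF14 (-1.36) to MAD1L1 (0.25). In nuclear RNA 31 mitosis genes were lower and 6 higher (SPC24 -2.14, CKAP5 0.83), and 23 replication genes lower and 9 higher (UHRF1 -1.44, ORC4 0.90).

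The regulators upstream form short lists of 14 and 12 genes. Of 14 E2F, DREAM and MMB regulators, 6 were higher and 0 lower at D0 (median 0.09), from MYBL2 (0.51) to E2F3 (0.15). At D4 7 were lower and 1 higher (median -0.17), from LIN9 (-0.75) to LIN52 (0.23). At D8 7 were lower and 0 higher (median -0.15), from the repressor E2F7 (-1.44) to TFDP1 (-0.16). Of 12 G1 cyclins, CDKs and RB family genes, 5 were higher and 2 lower at D0 (21.4% and 20.9% of all genes; median 0.13; MYCN 0.64, CCND2 -0.62), 1 higher and 4 lower at D4 (median -0.13; CDK6 0.21, CCND1 -0.86), and 1 higher and 6 lower at D8 (median -0.27; CCND3 0.36, CCND2 -1.84). In nuclear RNA 7 of the 14 were higher and 5 lower (TFDP2 1.0, FOXM1 -1.28), and 8 of the 12 higher and 1 lower (CCND1 1.80, SKP2 -0.49). Within the 12, RBL1 was read from the entry ENSG00000269846.1, at a mean of 0.241 CPM in WT and 0.261 in KO at D0. That is near the floor, so this entry says little about RBL1.

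CDK inhibitors hold cells in G1. In the D8 libraries labelled KO 4 of 6 tested were higher and 0 lower (median 0.65), where 29.4% of all genes were higher and 26.2% lower. CDKN1A, p21, was 20.3, 16 and 12.9 CPM in WT, against 33, 29.2 and 29 in the libraries labelled KO at D8 (0.89, adjusted p = 2.2e-06). At D0 it had been 30.8, 34.8 and 34.5 CPM in WT and 18.2, 20 and 20.1 in KO (-0.78, adjusted p = 2.6e-05) and -0.55 at D4. It was thus lower in KO at D0 and D4 and higher in the libraries labelled KO at D8. CDKN1B, p27, was 59.9, 52.5 and 48 CPM in WT, against 73.6, 74.1 and 72.5 in the libraries labelled KO (0.46, adjusted p = 2.8e-05). That was the smallest of the 4 increases. CDKN1C, p57, was 29, 32 and 28.7 CPM in WT, against 48.7, 52.6 and 59.6 in the libraries labelled KO (0.84, adjusted p = 7.3e-06). CDKN2B, p15, was 0.998, 1.24 and 1.24 CPM in WT, against 4.39, 3.76 and 3.24 in the libraries labelled KO at D8 (1.71, adjusted p = 2.7e-08). At D4 it was the list's only higher gene (1.71), also at low levels, with means of 0.18 CPM in WT and 0.601 in KO. At D0 it was called higher from a mean of 0.0194 CPM in WT, too few counts for a stable fold. In nuclear RNA 4 of 7 were higher and 2 lower (31.2% and 32.8% of all genes), from CDKN1A (1.68) to CDKN2C (-0.78).

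Skipped exons in member genes were taken from the authors' deposited tables. Each sets 3 libraries (here the first arm) beside 3 others (the second arm), and neither arm is named. An event was called where the authors' deposited FDR was under 0.05, inclusion differed by 0.1 or more and both arms averaged 10 or more junction reads a library. At D0, 5 of 375 member events with enough reads were called in the authors' deposited table, against 2.37% of all events. At D4 it was 1 of 265 in the authors' deposited table, against 1.1% of all events. At D8, 2 of 246 were called in the authors' deposited table, against 2.23% of all events. The remaining one of the authors' deposited tables compares a control with a QKI siRNA in 293T, a line from embryonic kidney, and gave 2 of 274 (0.451%). The ECT2 exon was the only member event called in all 4 of the authors' deposited tables. No share of all events is given here for this overlap, so it cannot be judged against all events.

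ECT2 carries this exon of 93 bases, a multiple of 3, at chr3:172473273-172473365 on the plus strand (hg19), and it is shown because its inclusion differed in every table. The GENCODE v29 transcript ENST00000366090 has an ECT2 coding exon of the same length between exons of the same lengths as in the files, 80 and 27 bases, at chr3:172755483-172755575 (GRCh38), and it reads as follows.
ECT2 exon: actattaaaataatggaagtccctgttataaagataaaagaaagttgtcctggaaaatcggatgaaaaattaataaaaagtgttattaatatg
Inclusion is the share of transcripts that keep the exon. In the authors' deposited table for D0 it was 0.830, 0.827 and 0.793 in the first arm, against 0.987, 0.981 and 0.980, a difference of 0.166 with an FDR listed as 0. In the authors' deposited table for D4 it was 0.790, 0.751 and 0.744 against 0.937, 0.933 and 0.973 (0.186, FDR 3e-08). For D8 the authors' deposited table gave 0.682, 0.689 and 0.739 against 0.935, 0.969 and 0.923 (0.239, FDR 1.8e-11). In 293T cells the authors' deposited table gave 0.235, 0.305 and 0.276 against 0.594, 0.498 and 0.436 (0.237, FDR 0.015). The arms did not overlap in any of the 4, and inclusion was lower in both arms of 293T than in the stem cell series. The ECT2 gene level differed between genotypes at D8 in whole-cell RNA and was not called at D0 (-0.03, adjusted p = 0.87).

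**Figure D5:**
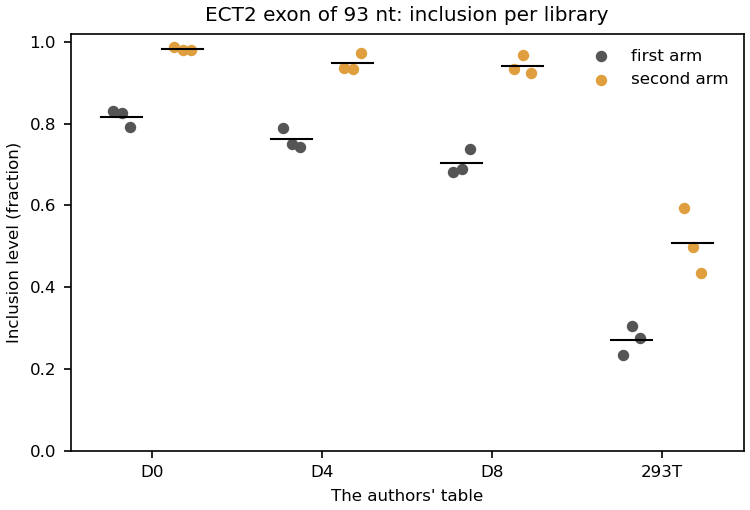
Points are the inclusion levels of the 93-base ECT2 exon in single libraries as given by the authors' deposited tables, grey for the first arm and orange for the second, with lines at the means. The second arm lies above the first in all 4 tables, from 0.817 to 0.983 at D0 and from 0.272 to 0.509 in 293T cells.

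The other called events were each called in 1 table. A KIF23 exon of 312 bases went from 0.790 in the first arm to 0.539 in the second at D0 (authors' deposited table). An AURKA exon of 98 bases went from 0.346 to 0.244 there, with 1 pair of flanking exons only. Other flanking exons gave no AURKA call at D0 (authors' deposited table). The pair with the most reads, a mean of 1201 and 990 per library, gave 0.059 and 0.057 (authors' deposited table). Another gave 0.272 and 0.180 (authors' deposited table, FDR 0.0097), a difference under 0.1. CENPE had 2 called events in the authors' deposited table for D0, an exon of 291 bases at 0.512 and 0.297 and an exon of 75 bases at 0.378 and 0.593. With a slightly different flanking exon and more reads, the 291-base exon was at 0.373 and 0.291 there (FDR 0.053, not called). In the authors' deposited tables for D4 and D8 the 75-base exon was lower in the second arm and not called. It was at 0.665 and 0.418 for D4 and at 0.409 and 0.286 for D8. In the authors' deposited table for D8, a CCNE1 exon of 135 bases was at 0.677, 0.648 and 0.685 in the first arm and 0.870, 0.860 and 0.862 in the second (FDR 2e-05), without overlap. At D0 the authors' deposited table gave 0.931 and 0.927 for the same CCNE1 exon. In the authors' deposited table for 293T, a BIRC5 exon of 816 bases was at 0.834 and 0.978 on a mean of 21.7 and 29.3 junction reads per library (FDR 0.023), the thinnest of these events.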

How the data were processed

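Poly(A) RNA was sequenced from Hues6 cells at D0, D4 and D8 and from D8 nuclei. The authors deposited raw read counts per gene in 2 tables, and per the submitters' processing notes the tools included STAR, cutadapt, UMI-tools, featureCounts and DESeq, with build hg19. No tool versions, annotation or strandedness of counting were given in the sources used here, so overlapping genes may share reads. Skipped-exon tables in rMATS format, as deposited, hold junction counts, inclusion levels as a fraction, p-values with FDR, and the authors' inclusion difference, recorded here as a score (first minus second arm). Inclusion was read as deposited.

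Counts were analysed in R 4.3.3 with edgeR 4.0.16 (filterByExpr, TMM, quasi-likelihood F test). The 18 whole-cell libraries formed 1 fit of 21761 genes with a biological coefficient of variation of 8.23%, and the 6 nuclear libraries another of 30481 genes with 11.9%. P-values were adjusted by Benjamini-Hochberg over all genes tested. SE is the absolute log2 fold change divided by the square root of F. The script was tested on simulated counts. Alternatives were RLE, total-count and upper-quartile scaling, DESeq2 1.42.0, an adjusted p under 0.01, no filter, a replicate block, fits of single days and leave-one-out fits.

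The members and lists were chosen with earlier results of these data known. Every member was accounted for by role; values per library were given for a fixed set, for the highest and lowest member of each comparison and for QKI, and from each pathway list the called genes with the highest and lowest fold change. A gene that this rule would name is not reported here. Nuclear WT replicates 2 and 3 differed by little more than sampling noise (chi-square per degree of freedom 1.22, others 2.91 to 62.2) and were kept apart, with their sum as an alternative chosen after seeing the data. Not analysed here: gene counts of 293T cells.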

Additional observations from a re-analysis of the deposited data

Results flagged for a closer look

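The tests of the difference between successive days passed the threshold for many members. This marks a difference between KO and WT that was not the same at both days. At D8 that difference rests on the KO label, as the QKI count was not lower there. No explanation was tested. Between D0 and D4, 28 members were called more negative and 2 more positive. In this test RRM2 moved by -1.38, CCNE2 by -0.96, MCM5 by -0.96, MCM6 by -0.91, GINS2 by -0.88, MCM2 by -0.80 and CCNE1 by -0.71 (log2 difference of KO effects). The helicase subunits MCM4, MCM7 and MCM3 moved by -0.68, -0.61 and -0.51, CDC6 by -0.64, PCNA by -0.61, CDT1 by -0.48 and E2F1 by -0.39. Of the mitosis genes, CDC20 moved by -0.67, CENPF by -0.57, PLK1 by -0.50, CCNB1 by -0.45, BUB1 by -0.43, AURKB by -0.42 and BIRC5 by -0.26.

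Between D4 and D8, 37 members were called more negative. CDC6 moved by -1.18, E2F1 by -0.94, TOP2A by -0.91, CENPA by -0.76, KIF20A by -0.75, CCNB2 by -0.70 and CDT1 by -0.70. CDC20 moved by -0.66, PLK1 by -0.62, MKI67 by -0.61, CENPF by -0.57, RRM2 by -0.49, AURKB by -0.47, MCM5 by -0.45, BIRC5 by -0.43 and CCNB1 by -0.31. CHIR dose differed with genotype at D4 and D8 and not at D0, so dose and genotype cannot be told apart in the difference between D0 and D4.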

How the results depend on the processing

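Of the values per member and alternative in the 4 KO comparisons, 2504 kept direction and side of the threshold. Another 94 lost the call and 47 gained it. A further 33, called in neither fit, changed sign. The last 10, called in either fit, reversed, all in nuclear RNA. The reversals were MCM3 (-0.22), MCM4 (-0.35), AURKA (-0.38) and ECT2 (-0.36) with total counts, CCNE1 (-0.45), MCM3 (-0.23), MCM4 (-0.36), AURKA (-0.39) and ECT2 (-0.37) with upper-quartile factors, and RACGAP1 (0.01) with DESeq2. At an adjusted p under 0.01, members lower at D0 numbered 7 in place of 11 (mitosis 6 in place of 10), replication members lower at D4 9, all genes called at D4 4093 in place of 6171, and members more positive between D0 and D4 0 in place of 2. With total counts, members lower at D4 numbered 24 in place of 37 (replication 7), members higher at D4 against D0 in KO 4 in place of 2, members more positive between D0 and D4 4, and replication members lower in nuclear RNA 15 in place of 8. With upper-quartile factors these last were 4 and 16. With DESeq2, 1 member was more positive between D4 and D8, 1 was higher in nuclear RNA, and 11049 in place of 19515 genes were called there. Leave-one-out fits gave 0 to 3 members more positive between D0 and D4, 8 to 14 replication members lower at D4 and 0 to 1 members higher in nuclear RNA. Requiring an inclusion difference of 0.2 left 3 member exon events at D0, 0 at D4, 1 for D8 and 1 for 293T, and an FDR under 0.01 left 0 for 293T. The cause was not tested in any of these. Of all called genes the share higher in KO was 57.6% at D4 (73.8% with total counts). In the libraries labelled KO it was 52.9% at D8 (37.6% with total counts, 42.2% with upper-quartile factors) and 48.7% in nuclear RNA (25.6%, 25.5% and, with DESeq2, 90.8%, and 59.4% at an adjusted p under 0.01). For the change of the KO effect the share more positive was 51.1% between D0 and D4 (62.9% with total counts) and 47.2% between D4 and D8 (24.9% with total counts, 37% with upper-quartile factors). The members lower at D8 numbered 46 to 48 in all alternatives run. Whether replicate numbers pair the samples was not settled. Same-numbered libraries correlated at -0.22 to 0.34 after centring within groups. Replicate 1 was closest to replicate 1 in every pair of whole-cell groups that held both, and other replicates matched only in part. The replicate block gave 46 members lower at D8 and 36 in nuclear RNA, where RACGAP1 lost its call (adjusted p = 0.065). Summing nuclear WT replicates 2 and 3 also gave 36. Low counts limit nuclear RNA most, where the lowest member count was 15.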
